A study of Mus musculus with 6 samples.

Results

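The genes described here encode Fc receptors and innate pattern-recognition receptors of myeloid cells with their signalling adaptors, measured in the liver of mice without Prkg1, the gene of cGMP-dependent protein kinase 1 (cGK1). The set holds 10 genes, Fcgr1, Fcgr3, Fcgr4, Fcer1g, Tyrobp, Cd14, Tlr2, Tlr4, Clec7a and Msr1, and all 10 were found among the 22180 genes tested. Each was measured by 1 probe set, the only probe set carrying that symbol alone. The knockout group was 3 liver samples from male cGK1-KO mice of C57BL/6N background, 2 months old, in which the kinase had been restored in smooth muscle. The other group was 3 liver samples from male mice of the same background and age, called wild type in the sample labels and control in the series description. Neither the promoter that drives the restored kinase nor whether controls carry it is stated in the labels. Nothing in the labels says that the replicates were different animals, and p-values reflect only the variation among these samples, some of which may be technical.

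Fc receptors bind the constant part of antibodies and let phagocytes take up antibody-coated particles. The activating receptors signal through adaptor chains that carry an ITAM, a tyrosine motif that recruits the kinase Syk when phosphorylated. Pattern-recognition receptors bind microbial sugars, lipids and lipoproteins directly. In liver, Kupffer cells, the resident macrophages that line the sinusoids, are a main site of both kinds of receptor, and sinusoidal endothelial cells carry the inhibitory receptor Fcgr2b.

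Values are log2 RMA expression from 1 array for each sample, with n = 3 in both groups. Prkg1 lay at 3.31, 3.04 and 3.22 in the cGK1-KO arrays and at 3.32, 2.97 and 2.95 in the control arrays, so the groups overlapped. Its control mean of 3.08 was below 3.14, the median of all deposited values, so Prkg1 was dim. The arrays are of whole-transcript design and the rescue can add transcript, so these values do not check the labels. The hepatocyte marker Alb, encoding albumin, lay at 13.3 to 13.4 in the cGK1-KO arrays and 13.3 to 13.4 in the control arrays, bright on all arrays. Knockout replicate 3 stood apart from the other knockout arrays. Across genes, which are not independent replicates, it correlated at 0.978 and 0.979 with knockout replicates 1 and 2 and at 0.981 to 0.983 with the control arrays.

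Of the 10 receptor and adaptor genes, 9 lay higher in the cGK1-KO livers, where 50.2% of all genes did. Clec7a, Fcer1g and Fcgr4 differed by over 1 log2 unit, and Cd14 was the exception with a difference of -0.07. The median difference of the 10 genes was 0.58 on the log2 scale, a 1.496-fold ratio, against 0.0011 over all genes tested. No gene passed an adjusted p of 0.05 in limma: 0 of the 10 did, against 0% of all genes. At an unadjusted limma p under 0.05, 6 of the 10 were higher and 0 were lower, where 5.06% of all genes were called higher and 5.46% lower. The same 6 genes, Fcgr3, Fcgr4, Fcer1g, Tyrobp, Tlr2 and Clec7a, had all 3 knockout arrays above all 3 control arrays, as did 7.61% of all genes. All 3 knockout arrays lay below all controls for 0 of the 10, against 9.14% of all genes. The count of 6 became 3 without knockout replicate 2, where 6.12% of all genes were called higher, and 3 without control replicate 2, where 3.54% were. Without knockout replicate 2 the median difference was 0.32. In whole liver, a change in the number of cells of a type and a change in RNA per cell cannot be told apart.

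**Figure D1:**
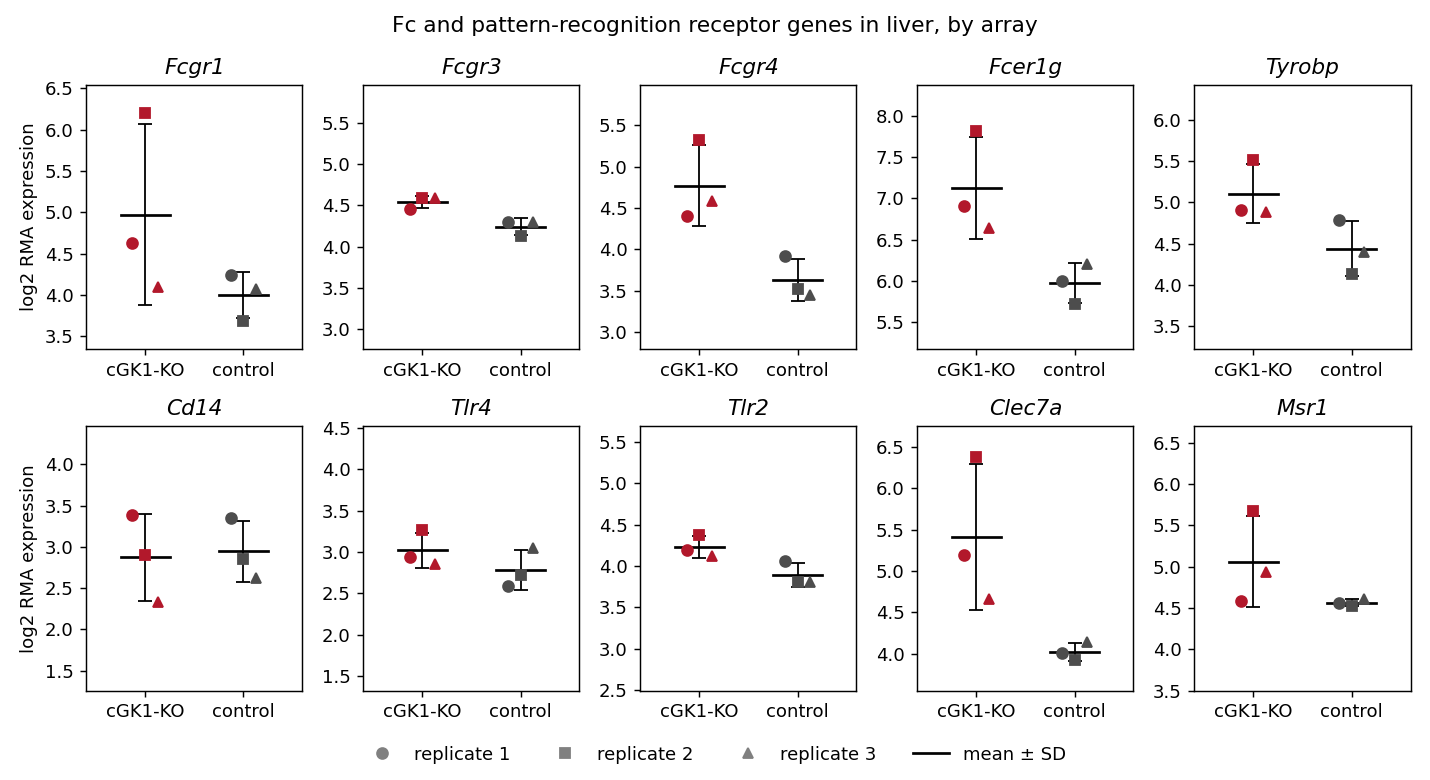
Log2 RMA expression of the 10 genes on each array, cGK1-KO left and control right, with replicates 1 to 3 as circle, square and triangle and the group mean ± SD as lines (n = 3 per group). Every panel spans the same number of log2 units. The squares of the knockout group, replicate 2, are the highest knockout value in 8 of the 10 panels.

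Among the ligand-binding IgG receptors, Fcgr4, an activating receptor of intermediate affinity, showed the clearest separation. It lay at 4.40, 5.33 and 4.59 in the cGK1-KO arrays, against 3.92, 3.52 and 3.45 in the control arrays. Even the lowest knockout value exceeded the highest control value. The log2 difference was 1.14 (SE 0.24), a 2.21-fold ratio, with a limma adjusted p of 0.221, and its unadjusted limma p of 0.00102 was the lowest of the 10 genes. It stayed between 0.86 and 1.33 when each array was left out in turn.

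Fcgr3, an activating receptor of low affinity, differed less. Its values were 4.46, 4.58 and 4.59 in the cGK1-KO arrays and 4.30, 4.12 and 4.30 in the control arrays. The groups did not overlap and both were tight, with SDs of 0.073 and 0.10. The difference was 0.30 (SE 0.13) with a limma adjusted p of 0.445. Parts of the Fcgr3 and Fcgr2b sequences are near-identical, so its probe set can share signal with that paralog, which was not tested.

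Fcgr1, the high-affinity IgG receptor, followed a single array. It lay at 4.63, 6.20 and 4.10 in the cGK1-KO arrays and at 4.24, 3.69 and 4.08 in the control arrays. Knockout replicate 2 stood far above all others, while knockout replicate 3 fell within the control range. The difference of 0.97 (SE 0.45, limma adjusted p = 0.487) was 0.36 without knockout replicate 2.

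The region before the transcription start of these genes was examined for PU.1, an ETS-family factor that drives myeloid genes. PU.1 was chosen because 9 of the 10 genes lay higher in the cGK1-KO livers, and its part in the result was not tested. Its core was searched as GAGGAA on both strands in the 250 bases upstream of the most upstream start of each gene in the RefSeq promoter table (GRCm38.p6). Shorter or variant forms of the core were not counted. Promoters of 6 of the 10 genes were searched: Fcgr1, Fcgr3, Fcgr4, Fcer1g, Tlr2 and Clec7a. Those of Tyrobp, Cd14, Tlr4 and Msr1 were not searched, and whether they hold the core was not tested. The share below thus leaves out Cd14, the only gene of the set with a negative difference, and allows no contrast with it. The core was present in 4 of the 6 searched, against 23.1% of the 27025 promoters searched. The Fcgr3 and Tlr2 starts in that table lie inside the RefSeq span of the gene, so their windows overlap it, and of the 4 windows outside their gene 3 held the core. In the 3 IgG receptor genes it ran on the opposite strand and so reads TTCCTC. The windows of 30 bases around it are shown to compare its flanks, 5′ to 3′ on the strand of the gene, with the core in capitals. The Fcgr3 window runs 12 bases past the start used. They lie at chr1:171018892-171018921 (plus strand), chr1:171059392-171059421 (minus strand), chr3:96294007-96294036 (minus strand) and chr6:129472858-129472887 (minus strand).
Fcgr4: aaggctatttacTTCCTCtcttctagtcaa
Fcgr3: gagtccatttccTTCCTCtttttgtagttc
Fcgr1: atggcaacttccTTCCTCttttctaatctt
Clec7a: aaacaggatctaGAGGAAaaaagggaaatt

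Fcgr3 and Fcgr1 share the run before and after the core, a pyrimidine stretch that Fcgr4 holds in altered form. The core began 22 bases before the start in Fcgr4, 6 in Fcgr3, 55 in Fcgr1 and 90 in Clec7a. It was thus present in Fcgr4 and Clec7a, which differed by over 1 log2 unit, and in Fcgr3, which differed by 0.30. A match of these letters is a description and not a binding site.

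Other motifs gave no common feature of the 6 promoters. The C/EBP core TTGCNNAA occurred in 1, Fcgr3, against 9.55% of the promoters searched. The interferon-response core GAAANNGAA occurred in 1, Fcgr4, against 7.16%, and the AP-1 core TGANTCA in 0, against 6.85%. Both strands were searched for each, and no match of these cores overlapped another. The Fcgr4 window of 250 bases, chr1:171018676-171018925 on the plus strand, is shown because it held 2 of these 4 cores, with the PU.1 core in capitals.
Fcgr4: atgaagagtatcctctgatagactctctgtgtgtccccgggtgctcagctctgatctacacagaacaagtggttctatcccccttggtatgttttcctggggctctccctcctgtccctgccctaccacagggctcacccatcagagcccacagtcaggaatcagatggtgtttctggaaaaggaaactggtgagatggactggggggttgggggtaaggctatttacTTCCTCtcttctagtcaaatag

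The adaptor Fcer1g, the common gamma chain that Fcgr1, Fcgr3 and Fcgr4 need for surface expression and signalling, differed as much as Fcgr4. It lay at 6.91, 7.82 and 6.64 in the cGK1-KO arrays, against 6.00, 5.72 and 6.20 in the control arrays. All knockout values were above all control values. The difference was 1.15 (SE 0.28), a 2.21-fold ratio, with a limma adjusted p of 0.249, and without knockout replicate 3 it was 1.39 with an adjusted p of 0.0906.

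Tyrobp encodes DAP12, the ITAM adaptor of TREM, SIRP-beta and natural killer receptors. Its values were 4.91, 5.51 and 4.89 in the cGK1-KO arrays and 4.79, 4.13 and 4.40 in the control arrays. The groups were apart, though the 2 lower knockout arrays lay just above the highest control. The difference was 0.67 (SE 0.22), a 1.59-fold ratio, with a limma adjusted p of 0.358.

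Fcer1g is the only one of the 3 genes differing by over 1 log2 unit whose upstream window had no match of GAGGAA, and it is shown for that reason. The shorter string GGAA, which ends the searched core, does occur in it, so a PU.1 or other ETS site is not excluded. The window lies at chr1:171234350-171234599 on the minus strand, with no capitals because it held no match of the full string.
Fcer1g: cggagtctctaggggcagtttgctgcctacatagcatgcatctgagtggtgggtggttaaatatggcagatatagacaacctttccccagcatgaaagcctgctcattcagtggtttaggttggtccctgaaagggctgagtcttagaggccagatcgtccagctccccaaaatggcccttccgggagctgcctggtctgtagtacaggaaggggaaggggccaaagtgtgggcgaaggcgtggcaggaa

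Fcgr4, Fcgr3 and Fcer1g lie on the same stretch of chromosome 1 in the RefSeq gene table. Between Fcgr3 and Fcer1g that table holds 7 protein-coding genes, of which 6 were measured, and the groups overlapped for all 6. Most genes overlap: all knockout arrays lay above all controls for 7.61% of all genes and below for 9.14%. Sdhc, a subunit of succinate dehydrogenase, differed by 0.11, Nr1i3, the nuclear receptor CAR, by -0.16 and the apolipoprotein gene Apoa2 by 0.01.

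Cd14 and Tlr4 had overlapping groups. Cd14, the co-receptor that hands lipopolysaccharide to TLR4, lay at 3.39, 2.90 and 2.33 in the cGK1-KO arrays and at 3.35, 2.85 and 2.63 in the control arrays. The groups covered nearly the same range. The difference was -0.07 with a 95% interval of -0.69 to 0.54 and a limma adjusted p of 0.949, and its sign turned to 0.20 without knockout replicate 3.

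Tlr4, the signalling receptor for lipopolysaccharide, lay at 2.94, 3.26 and 2.85 in the cGK1-KO arrays and at 2.58, 2.72 and 3.05 in the control arrays. Control replicate 3 lay within the knockout range. The difference was 0.23 (SE 0.17, limma adjusted p = 0.661), with a 95% interval of -0.15 to 0.62. It was 0.11 without knockout replicate 2, 0.13 without control replicate 1 and 0.37 without control replicate 3. The control means of Cd14 and Tlr4 were below 3.14, the median of all deposited values, so both genes were dim and a difference could be understated.

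Tlr2, which senses bacterial lipoproteins as a dimer with TLR1 or TLR6, lay at 4.20, 4.38 and 4.12 in the cGK1-KO arrays and at 4.06, 3.81 and 3.80 in the control arrays. The groups did not overlap, but knockout replicate 3 exceeded control replicate 1 by little. The difference was 0.34 (SE 0.14), a 1.27-fold ratio, with a limma adjusted p of 0.432.

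Clec7a, encoding the beta-glucan receptor dectin, a lectin that signals through an ITAM-like motif of its own, had the largest difference of the 10. It lay at 5.19, 6.38 and 4.65 in the cGK1-KO arrays, against 4.0003, 3.92 and 4.14 in the control arrays. The control values were close together and all knockout values were above them, spread over a wider range. The difference was 1.39 (SE 0.36), a 2.62-fold ratio, with a limma adjusted p of 0.278. It was 0.90 without knockout replicate 2 and 1.77 without knockout replicate 3, where the adjusted p was 0.0701, the lowest of any of the 10 genes under any setting tried. Its upstream window, chr6:129472786-129473035 on the minus strand, is shown as that of the gene with the largest difference, with the PU.1 core in capitals.
Clec7a: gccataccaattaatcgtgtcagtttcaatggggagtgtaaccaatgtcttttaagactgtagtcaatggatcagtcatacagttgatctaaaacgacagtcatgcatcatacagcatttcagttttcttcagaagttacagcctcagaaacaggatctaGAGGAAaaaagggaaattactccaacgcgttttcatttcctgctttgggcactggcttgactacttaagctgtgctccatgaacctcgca

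Msr1, the class A scavenger receptor for modified lipoproteins and bacterial surfaces, lay at 4.58, 5.67 and 4.94 in the cGK1-KO arrays and at 4.55, 4.53 and 4.61 in the control arrays. Knockout replicate 1 fell within the narrow control range, and knockout replicate 2 was the highest. The difference was 0.50 (SE 0.24, limma adjusted p = 0.512), and 0.19 without knockout replicate 2.

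**Figure D2:**
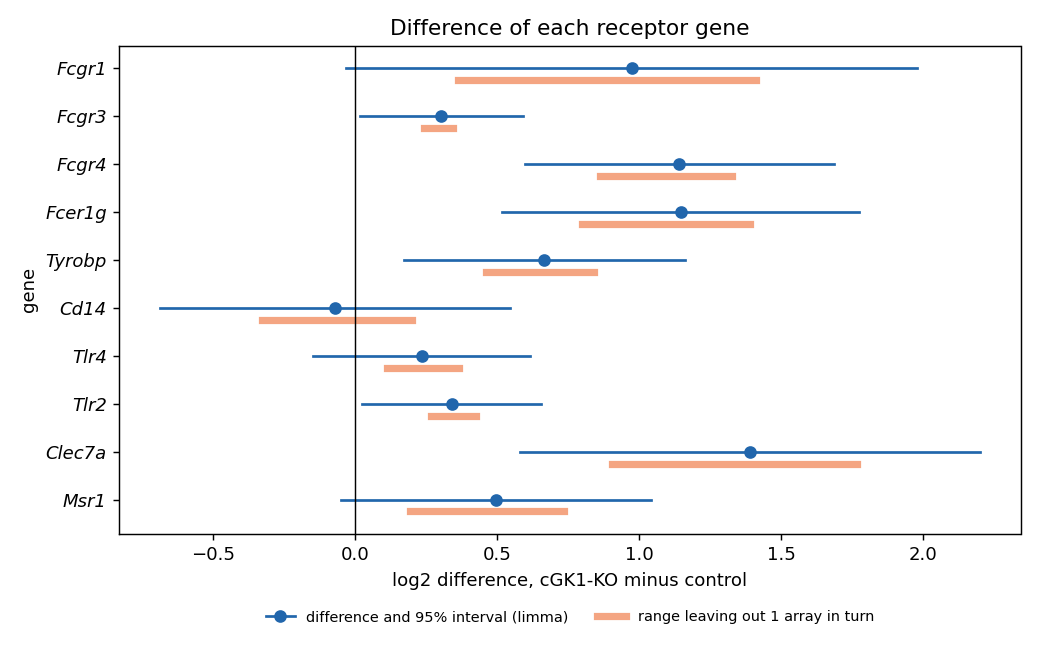
Log2 difference, cGK1-KO minus control, of each gene with its 95% interval from limma (blue) and the range when each of the 6 arrays is left out in turn (orange). The intervals of Fcgr1, Cd14, Tlr4 and Msr1 include 0, and the leave-one-out range crosses 0 for Cd14 alone.

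Exact permutation tests over the arrays gave p = 0.1 for each of the 6 genes with separated groups, the smallest that 3 against 3 arrays allow. They gave 0.2 for Fcgr1 and Msr1, 0.3 for Tlr4 and 1 for Cd14. Between members of a kind, the change of Fcgr4 exceeded that of Fcgr3 by 0.84, and the change of Clec7a exceeded that of Msr1 by 0.89, each with groups apart and an exact 2-sided permutation p of 0.1. For Fcer1g over Tyrobp the excess was 0.48 (exact p = 0.2), for Fcgr1 over Fcgr3 0.67 (exact p = 0.5) and for Tlr2 over Tlr4 0.11 (exact p = 0.7). These 5 pairs were chosen after their values were seen, and the lowest Benjamini-Hochberg adjusted exact p among them was 0.25, so none was shown to differ.

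The knockout arrays did not contribute equally. Knockout replicate 2 held the highest knockout value for 8 of the 10 genes, and knockout replicate 3 the lowest for 7. The mean of the 10 genes lay 0.18, 0.82 and -0.01 from its 6-array mean in knockout replicates 1 to 3, against -0.20, -0.48 and -0.31 in control replicates 1 to 3. Knockout replicate 3 thus lay nearest the controls, yet above each of them.

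Macrophage and Kupffer cell markers moved in the same arrays. Of 10 macrophage markers, 10 lay higher, 9 of them at an unadjusted limma p under 0.05 (5.06% of all genes were), with a median difference of 0.91. Their mean log2 level was 5.90 to 6.90 in the cGK1-KO arrays and 5.44 to 5.67 in the control arrays. Adgre1, encoding the macrophage marker F4/80, lay at 5.63, 6.16 and 4.55 in the cGK1-KO arrays and at 4.64, 4.33 and 4.27 in the control arrays. Knockout replicate 3 fell within the control range here too. The difference was 1.03, and 0.68 without knockout replicate 2. Of 10 Kupffer cell markers, 8 lay higher, 6 at an unadjusted p under 0.05, with a median of 0.71 and a mean level of 5.88 to 6.76 in the cGK1-KO arrays against 5.53 to 5.80 in the control arrays. Clec4f, a lectin found on Kupffer cells, differed by 0.84 (SE 0.31) with groups apart, and by 0.42 without knockout replicate 2. Without that array the median of the Kupffer cell markers was 0.37, and their count of 6 became 3 without control replicate 2 or 3. Fcer1g, Tyrobp and the other genes of the set are expressed by these cells, and the part of macrophage markers in the result was not tested.

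Many markers of recruited myeloid cells were dim: 7 of 10 monocyte and 8 of 12 neutrophil markers had control means under the median of all deposited values. Of the 10 monocyte markers, 10 lay higher but 2 at an unadjusted limma p under 0.05, with a median of 0.22 and a mean level of 2.82 to 3.34 in the cGK1-KO arrays and 2.61 to 2.69 in the control arrays. The median was 0.38 without knockout replicate 1 and 0.14 without knockout replicate 2 or 3. Plac8, a myeloid marker, lay at 4.17, 4.67 and 3.49 in the cGK1-KO arrays and at 2.92, 2.87 and 3.02 in the control arrays. Its groups were apart, with a difference of 1.17 (SE 0.26, limma adjusted p = 0.237). Ly6c2, a surface marker of inflammatory monocytes, lay at 2.55, 4.003 and 2.18 in the cGK1-KO arrays and at 1.83, 1.82 and 1.22 in the control arrays, with groups apart. Its difference was 1.28, and 0.74 without knockout replicate 2. Of the 12 neutrophil markers, 10 lay higher and 4 at an unadjusted p under 0.05, with a median of 0.25 and mean levels of 2.90 to 2.98 in the cGK1-KO arrays and 2.65 to 2.74 in the control arrays. For both the monocyte and the neutrophil count, the share over all genes was 5.06%. The neutrophil median lay between 0.13 without control replicate 1 and 0.34 without knockout replicate 2. The neutrophil count of 4 became 2 without control replicate 2, where 3.54% of all genes were higher. S100a8, a calprotectin subunit, lay at 2.57, 2.11 and 1.89 in the cGK1-KO arrays and at 1.77, 1.74 and 1.68 in the control arrays. Its groups were apart at low signal, with a difference of 0.46, and 0.27 without knockout replicate 1. The neutrophil collagenase gene Mmp8 lay at 3.02, 2.61 and 2.77 in the cGK1-KO arrays and at 2.18, 1.81 and 2.18 in the control arrays, also apart (difference 0.74, limma adjusted p = 0.237). Prtn3, encoding proteinase 3, lay at 4.91, 5.15 and 4.41 in the cGK1-KO arrays and at 4.18, 4.16 and 3.89 in the control arrays, apart and not dim (difference 0.75, limma adjusted p = 0.285). The part of either cell type in the result was not tested. Ptprc, encoding the pan-leukocyte antigen CD45, lay at 4.46, 5.62 and 4.52 in the cGK1-KO arrays and at 4.34, 4.61 and 4.63 in the control arrays, high in knockout replicate 2 alone.

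**Figure D3:**
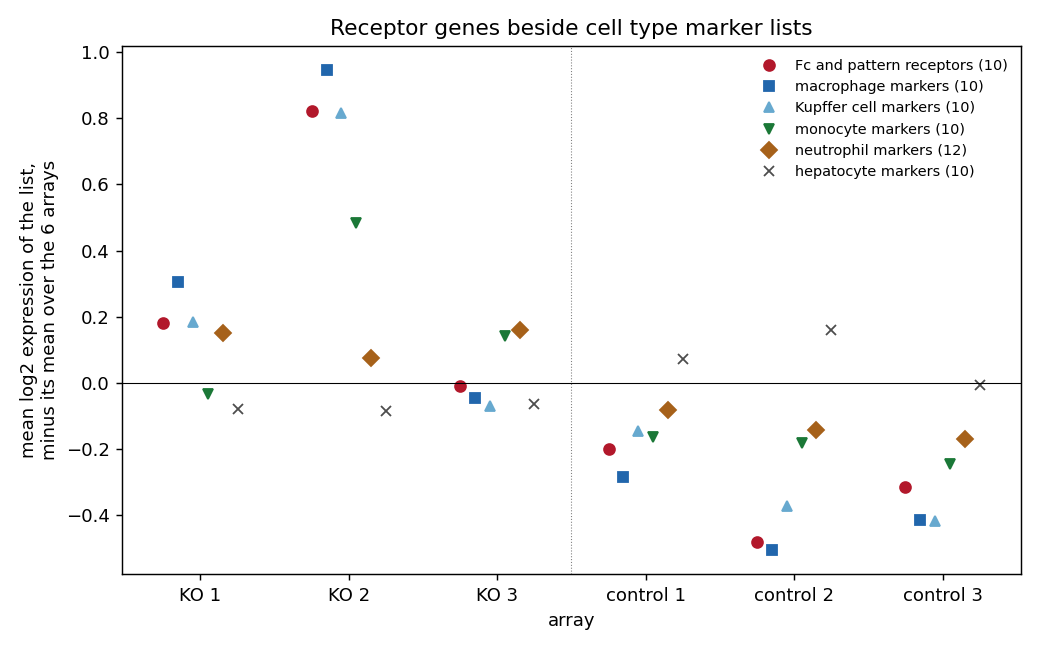
Mean log2 expression of the 10 receptor genes and of marker lists on each array, minus the mean of that list over the 6 arrays, with the knockout arrays left of the controls and the number of genes in brackets. The receptor genes, macrophage markers and Kupffer cell markers all peak in knockout replicate 2. The hepatocyte marker mean lies lower in the knockout arrays (10.69 to 10.71) than in the control arrays (10.77 to 10.94).

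Set against the mean of the 10 macrophage markers on the same array, the receptor genes divided. The within-array difference was positive for 4 genes and negative for 6, with a median of -0.22. Clec7a alone kept all knockout arrays above all controls, at 0.59 relative to the markers, as did 0.0766% of all genes on this scale. Tlr2 alone had all knockout arrays below, at -0.46, as did 68.2% of all genes. The marker mean subtracted was higher in the knockout arrays. Fcer1g and Fcgr4 lay at 0.34 and 0.34, Fcgr3 at -0.50, Tyrobp at -0.14 and Cd14 at -0.87, all with overlapping groups. Against the mean of the Kupffer cell markers, Clec7a (0.77), Fcer1g (0.53) and Fcgr4 (0.52) had the knockout arrays above all controls, against 0.162% of all genes, and 0 of the 10 had them below, against 48.9%. Subtracting a higher marker mean lowers most genes on this scale, so the shares over all genes are no measure for genes of macrophages. These values describe each probe set relative to the markers, with no test, and unequal change between the genes was not shown.

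**Figure D4:**
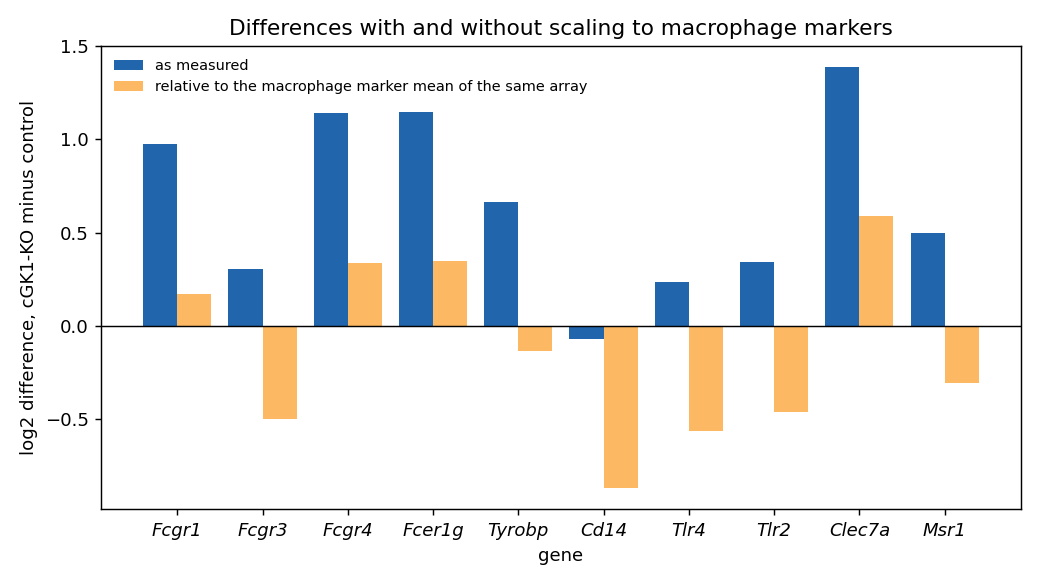
Log2 difference, cGK1-KO minus control, of each gene as measured (blue) and after subtracting the macrophage marker mean of the same array (orange). Clec7a keeps a difference of 0.59 relative to the markers, and Tlr2 turns to -0.46.

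Around the receptors, 8 further lists of related genes held 110 genes, of which 101 were measured. Some are also in the marker lists, among them Clec4f, Marco, Cd68 and Cd209a, so the related and marker lists are not separate observations. At an adjusted p of 0.05 in limma 0 passed. At an unadjusted p under 0.05, 24 were higher (23.8%) and 2 lower, against 5.06% and 5.46% of all genes, with a median difference of 0.14. The counts of single lists below compare with the same shares, to which 1 gene of a short list is close. The count of 24 became 14 without knockout replicate 2 or control replicate 3, and 15 without control replicate 1 or 2, where 6.12%, 3.76%, 3.87% and 3.54% of all genes were higher.

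The signalling chain behind the ITAM adaptors was higher in part. Of 13 measured ITAM signalling genes, 11 had positive differences and 5 were higher at an unadjusted limma p under 0.05, with a median of 0.26. They were the phospholipase gene Plcg2 (0.53), the exchange factor gene Vav1 (0.54), the Src-family kinase gene Fgr (0.81), the adaptor gene Lcp2 (0.70) and the kinase gene Btk (0.30), the last chosen after its value was seen. Plcg2 lay at 4.13, 4.07 and 4.0005 in the cGK1-KO arrays, against 3.47, 3.56 and 3.57 in the control arrays. All 3 knockout arrays lay close together here. Syk itself differed by 0.25 (SE 0.13, limma adjusted p = 0.537) with groups apart, and Card9, which couples Syk to NF-kB below dectin, by 0.22 with overlapping groups. The difference of Lcp2 was 0.42 without knockout replicate 2, and that of Card9 0.02 without knockout replicate 3 and 0.41 without knockout replicate 1.

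Genes listed as receptors of the TYROBP adaptor had no common direction. Which adaptor each of them uses, Cd300ld included, was not checked. Of 11 measured, 5 had positive and 6 negative differences, with a median of -0.01 that lay between -0.18 without control replicate 2 and 0.15 without control replicate 3, and 8 had control means below the median of all deposited values. At an unadjusted p under 0.05, Cd300ld lay higher (0.81, limma adjusted p = 0.428) and Trem1, an amplifier of inflammation on neutrophils and monocytes, lower (-0.40, limma adjusted p = 0.423). Trem2, a lipid-sensing receptor of macrophages, lay at 3.75, 3.28 and 3.71 in the cGK1-KO arrays and at 3.80, 3.86 and 3.75 in the control arrays, with a difference of -0.22 and a limma adjusted p of 0.650. Without knockout replicate 2 the difference of Cd300ld was 0.37 and that of Trem2 -0.07.

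Among 10 other Fc receptor genes the median difference was 0.08, and 1 was higher at an unadjusted p under 0.05, the IgE receptor gene Fcer2a (0.38), which is dim. The median was -0.07 without knockout replicate 2 and 0.14 without knockout replicate 3, where Fcer2a differed by 0.24. Fcgr2b, the inhibitory IgG receptor, lay at 7.05, 7.92 and 7.41 in the cGK1-KO arrays and at 7.39, 7.33 and 7.50 in the control arrays. Its groups overlapped on both sides, and the difference was 0.05 (SE 0.21, limma adjusted p = 0.953), between -0.18 without knockout replicate 2 and 0.25 without knockout replicate 1. Fcgr2b is also a marker of sinusoidal endothelium.

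Toll-like receptor genes outside the set had mostly small positive differences. Of 10 measured, 9 had positive differences with a median of 0.20, and 1, the DNA sensor gene Tlr9 (0.46), was higher at an unadjusted p under 0.05. Their median was 0.13 without knockout replicate 1 and 0.33 without knockout replicate 3. Of 15 genes of Toll-like receptor signalling, 5 were higher and 1 lower, with a median of 0.08. It lay between 0.02 without knockout replicate 2, where 1 was higher and 3 lower, and 0.20 without control replicate 2. Lbp, the lipopolysaccharide-binding protein that hepatocytes secrete, lay at 9.53, 9.77 and 9.81 in the cGK1-KO arrays and at 9.21, 9.40 and 9.39 in the control arrays. Its difference was 0.36 (SE 0.14) with groups apart. Ly96, encoding the TLR4 partner MD-2, lay at 6.77, 7.32 and 7.00 in the cGK1-KO arrays and at 6.53, 6.72 and 6.73 in the control arrays, so that unlike Cd14 and Tlr4 its groups were apart. It differed by 0.37 (SE 0.16, limma adjusted p = 0.476), and by 0.22 without knockout replicate 2, and Irak3, an inhibitor of the pathway, by 0.58. Myd88, the shared adaptor, lay at 6.10, 6.26 and 6.50 in the cGK1-KO arrays and at 5.37, 5.34 and 6.22 in the control arrays, so control replicate 3 overlapped the knockout values. Hsp90b1, the endoplasmic reticulum chaperone of Toll-like receptors, was the lower gene (-0.36).

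Of 15 measured C-type lectin genes outside the set, 6 were higher and 0 lower at an unadjusted p under 0.05, with a median of 0.36. Cd209a, of the DC-SIGN family, lay at 9.10, 8.86 and 8.69 in the cGK1-KO arrays and at 8.05, 7.97 and 8.14 in the control arrays. Its difference of 0.83 (SE 0.14, limma adjusted p = 0.151) had little spread within the groups. Cd209a had 2 probe sets, and these values are of the brighter. Clec12a, an inhibitory myeloid lectin, differed by 1.00, Clec4n, encoding a mannan-binding relative of dectin, by 0.63, and Clec4e, encoding Mincle, by 0.43. Without knockout replicate 2 the list median was 0.10 and the difference of Clec12a 0.61, and Clec4n differed by 0.42 without knockout replicate 3. Clec4n and Clec4e pair with Fcer1g, and both were dim in the controls.

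Of 13 other scavenger receptor genes, 3 were higher, with a median of 0.15. It was 0.02 without knockout replicate 2, 0.09 without control replicate 3 and 0.39 without knockout replicate 3. The 3 were Cd36, a fatty acid and lipoprotein receptor also made by hepatocytes (1.23), the lysosomal macrophage gene Cd68 (0.98) and Marco, a class A receptor like Msr1 (0.74). Marco lay at 5.53, 5.89 and 5.22 in the cGK1-KO arrays, against 4.70, 4.95 and 4.77 in the control arrays, and unlike Msr1 its groups were apart. Of 14 cytosolic pattern receptor genes, 2 were higher, the inflammasome genes Aim2 (0.35) and Casp1 (0.40), with a median of 0.10. Without knockout replicate 2 the median was -0.02 and 0 of these genes were higher.

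**Figure D5:**
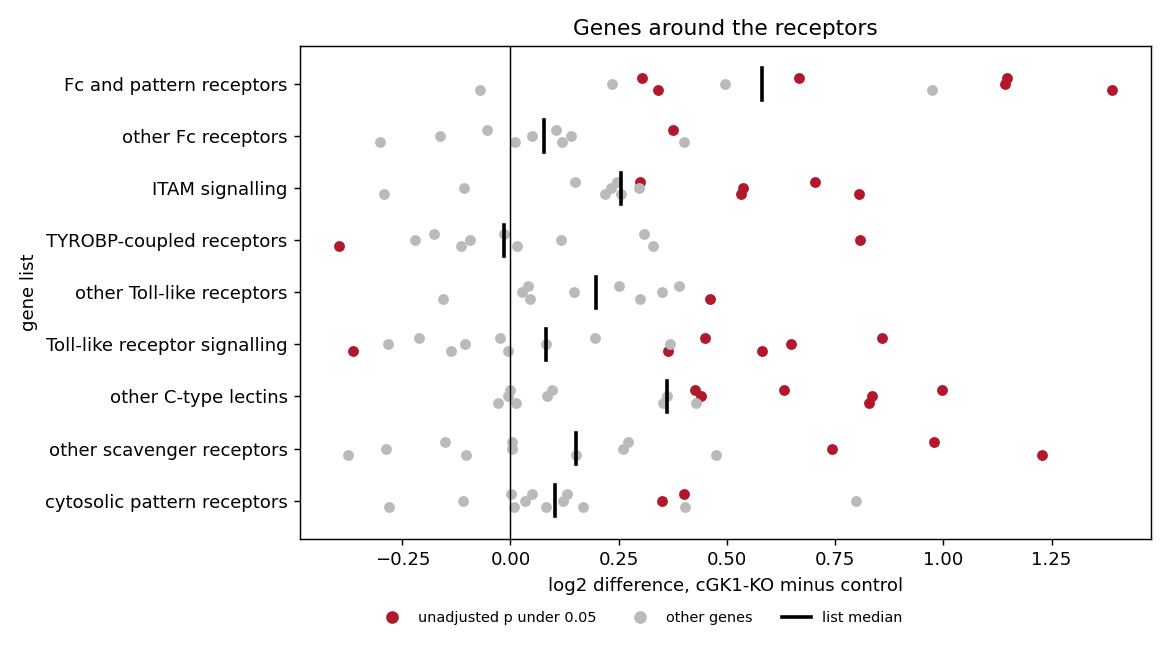
Log2 difference, cGK1-KO minus control, of each measured gene of the receptor set and of 8 related lists, in red at an unadjusted limma p under 0.05, with the list median as a black bar. The receptor set has a median of 0.58 and the list named TYROBP-coupled receptors one of -0.01.

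Genes whose values over the 6 arrays followed those of the receptor set most closely were found by the root mean square difference between profiles centred on their own means. They were Fermt3 (0.040), Msn (0.061), Bank1 (0.067), Sparc (0.074) and Dnajc12 (0.077), among genes above the median level. Fermt3, encoding the blood-cell integrin activator kindlin, lay at 4.55, 5.09 and 4.32 in the cGK1-KO arrays and at 4.17, 3.82 and 3.99 in the control arrays, a difference of 0.66. Sparc, encoding a matrix glycoprotein, differed by 0.78. The arrays share their group structure, so the likeness is a description.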

How the data were processed

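Total liver RNA of 6 samples was labelled as biotin cRNA and measured on Affymetrix whole-transcript arrays, per the labels' protocols. The deposited table holds log2 expression values that the authors made with Affymetrix Expression Console 1.4.1 and RMA, per the submitters' processing notes. RMA corrects background, gives all arrays a common distribution and summarises probe sets, so a shift of most transcripts would not show. It holds 41345 probe sets, with array medians of 3.11 to 3.16, and 0 pairs of arrays were identical. The build behind the probe sets is not stated there.

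Of the probe sets, 23521 had 1 gene symbol in the platform annotation. The brightest probe set over the 6 arrays stood for each of 22180 genes. Knockout minus control was fitted with limma 3.58.1 (lmFit, eBayes; R 4.3.3), 2-sided, with Benjamini-Hochberg adjustment over all genes, and exact permutation tests were added for the receptor genes. No filter was applied. On simulated data of 22180 genes this test recovered 70% of 50 genes shifted by 1 log2 unit and 100% of those shifted by 2, with 8 false calls. These shares do not carry over to Clec7a, Fcer1g and Fcgr4, which differed by over 1 log2 unit and did not pass. Their knockout SDs were 0.88, 0.62 and 0.49, against a median knockout SD of 0.19. The number of arrays limits the precision.

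The genes of the set and the gene lists were chosen with earlier results of these data known. Named are all 10 genes, up to 4 genes of each list by absolute moderated statistic, some fixed partners and markers, and the 5 genes nearest in profile. Neighbours on chromosome 1 and the pairs were chosen after their values were seen. Replicate numbers did not pair the samples, since deviations of same-numbered arrays correlated at 0.0064 to 0.053. Alternatives were a filter on dim genes, further quantile normalization, median centring, other variance priors, array weights, a replicate block, averaged probe sets and leaving out each array, which was extended to the list medians and counts after the data were seen. Promoter sequences are from RefSeq (GRCm38.p6), with those on chromosome 18 left out.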

Additional observations from a re-analysis of the deposited data

How the results depend on the processing

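Of 138 differences of the receptor genes under the alternatives, 136 kept their direction and their side of the threshold. The other 2 concern Cd14, whose difference was -0.07 and turned to 0.20 without knockout replicate 3 and to 0.13 without control replicate 1, within a range of -0.33 to 0.20 when each array was left out. None of the 10 genes passed an adjusted p of 0.05 in limma under any alternative, the lowest being 0.0701. The number of all genes past that threshold was 0, against 8 with the filter on dim genes, 25 when the variance prior followed intensity, 1 with the replicate block and 0 to 66 when each array was left out, the highest without knockout replicate 3. The cause was not tested. The count of receptor genes higher at an unadjusted p under 0.05 was 6, against 5 with the replicate block, 8 after further quantile normalization and 3 to 6 when each array was left out. The filter on dim genes removed Cd14 and Tlr4, left 8 of the 10 and gave a median difference of 0.82 over these. The replicate number is shared by label only. Signal near the median of all deposited values limits what can be seen for Cd14 and Tlr4.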

Other observations

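Marker lists of other liver cell types had smaller median differences than the macrophage markers, but several held dim genes, for which a difference could be understated. Control means were under the median of all deposited values for 8 of 11 natural killer and T cell markers. The same held for 5 of 9 B cell and plasma cell, 3 of 9 dendritic cell and 0 of 10 macrophage markers. Of 9 dendritic cell markers, 7 lay higher in the cGK1-KO livers and 4 at an unadjusted limma p under 0.05 (1 to 3 when each array was left out, the fewest without control replicate 3), with a median difference of 0.33 (0.21 without control replicate 2), led by Cd209a, and Xcr1, a chemokine receptor gene of cross-presenting dendritic cells, differed by 0.36. Of 10 sinusoidal endothelial markers, 8 lay higher and 3 at an unadjusted p under 0.05, with a median of 0.22 that was -0.02 without knockout replicate 2. Lyve1, encoding a hyaluronan receptor of these cells, lay at 7.40, 7.94 and 7.44 in the cGK1-KO arrays and at 6.76, 6.61 and 6.67 in the control arrays (difference 0.92, SE 0.17, limma adjusted p = 0.178), while Stab2, a scavenger receptor gene of the same cells, differed by 0.27 with overlapping groups. Of 11 natural killer and T cell markers, 1 was higher, Cd3e (0.61), with a median of 0.18, and of 9 B cell and plasma cell markers 1, Ighm (0.37), with a median of 0.08. At the same unadjusted p 5.06% of all genes were higher, and 1 gene of a short list is near that share.

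Hepatocyte markers had a median difference of -0.16, and 3 of 10, Hnf4a (-0.36), Tdo2 (-0.32) and Tat (-0.38), were lower at an unadjusted limma p under 0.05, against 5.46% of all genes. Of 10 stellate cell markers, the collagen gene Col3a1 was higher (0.86) and the smooth muscle actin gene Acta2 lower (-0.39), with a median of 0.09. Cholangiocyte markers (7 measured) had a median of 0.11 and erythroid and platelet markers (5 measured) one of 0.19, with 0 at an unadjusted limma p under 0.05 in either list and 0 after adjustment.

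When each array was left out, the medians ranged from 0.11 to 0.28 for natural killer and T cell markers, 0.03 to 0.09 for B cell and plasma cell markers, 0.02 to 0.21 for stellate cell markers, 0.00067 to 0.23 for cholangiocyte markers and 0.076 to 0.30 for erythroid and platelet markers. The hepatocyte median stayed between -0.18 and -0.14, while the count of 3 lower genes became 0 without knockout replicate 1.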
